A study of Homo sapiens with 8 samples.

Results

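The 10 genes described here encode the transforming growth factor-β (TGF-β) ligands TGFB1, TGFB2 and TGFB3, their receptors TGFBR1, TGFBR2 and TGFBR3, the inhibin β subunits INHBA and INHBB that form the activins, follistatin (FST) and the follistatin-like protein FSTL1. They were listed by gene symbol, and each was read from the brightest transcript cluster of its symbol. All 10 were found among the 18417 genes measured. The cells were ZR-75-1, an estrogen receptor-positive breast cancer line of luminal type, and the question was how lowering EI24, a protein of the endoplasmic reticulum membrane, changed their mRNA levels.

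Total RNA was hybridized to 8 Affymetrix arrays, 2 for each of 4 lines. Parental ZR-75-1 cells carried no shRNA, shGFP cells carried a control shRNA against GFP, and ZR-shEI24 clone 1 and clone 2 carried shRNA against EI24. The design text of the series speaks of 2 independent knockdown clones, and the first number in the sample titles was taken as the clone, which the titles themselves do not state. All lines were grown in RPMI medium with fetal bovine serum and received no chemical treatment. The sources used here do not say whether the shGFP line is 1 clone or a pool, and each ZR-shEI24 line is a single clone, so an effect of the knockdown and a trait of a clone cannot be told apart within 1 line. Whether both arrays of a line stem from separate cultures is not stated, and p-values below therefore reflect only array-to-array spread, possibly technical. EI24 itself lay between 8.43 and 9.25 log2 intensity units in the 4 ZR-shEI24 arrays and between 11.91 and 12.09 in the 4 control arrays, which do not overlap.

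TGF-β and activin ligands are secreted dimers that assemble pairs of type I and type II serine/threonine kinase receptors at the cell surface. The type I receptor then phosphorylates SMAD2 and SMAD3, which enter the nucleus with SMAD4 and change transcription. Follistatin binds activin and keeps it from its receptors. In mammary epithelium TGF-β is known both for slowing proliferation and for inducing the epithelial-to-mesenchymal transition, in which cells lose their contacts and become motile.

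Promoter sequence was read from the 250 bases before the outermost annotated start of a gene in RefSeq (assembly GRCh38.p14). Of the 10 genes 8 had such a window. The windows of the INHBA and TGFBR3 entries did not end at that start and were not used. Shown first are 4 genes that were among those most raised in ZR-shEI24 cells, together with TGFB3, which was lowered by the most. All run 5′ to 3′ along the gene's strand and end at the base before the start. FST lies on chromosome 5, plus strand, at chr5:53480379-53480628, FSTL1 on chromosome 3, minus strand, at chr3:120450993-120451242, and TGFBR2 on chromosome 3, plus strand, at chr3:30606106-30606355. TGFB2 lies on chromosome 1, plus strand, at chr1:218345086-218345335, and TGFB3 on chromosome 14, minus strand, at chr14:75983012-75983261. Capitals in the FST window mark an E-box overlapped by an AP-1 match.
FST: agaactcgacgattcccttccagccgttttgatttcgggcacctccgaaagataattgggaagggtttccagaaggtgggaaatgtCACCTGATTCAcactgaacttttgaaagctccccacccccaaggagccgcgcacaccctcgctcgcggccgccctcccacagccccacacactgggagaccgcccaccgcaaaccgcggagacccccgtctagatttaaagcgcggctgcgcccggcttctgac
FSTL1: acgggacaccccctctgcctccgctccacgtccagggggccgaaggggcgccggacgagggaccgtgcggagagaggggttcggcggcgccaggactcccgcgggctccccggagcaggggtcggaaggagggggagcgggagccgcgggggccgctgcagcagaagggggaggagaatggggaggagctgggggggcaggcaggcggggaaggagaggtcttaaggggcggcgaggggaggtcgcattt
TGFBR2: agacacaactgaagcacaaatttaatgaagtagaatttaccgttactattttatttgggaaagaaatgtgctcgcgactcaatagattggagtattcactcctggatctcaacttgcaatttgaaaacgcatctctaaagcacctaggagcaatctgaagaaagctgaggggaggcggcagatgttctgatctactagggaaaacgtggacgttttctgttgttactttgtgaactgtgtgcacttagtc
TGFB2: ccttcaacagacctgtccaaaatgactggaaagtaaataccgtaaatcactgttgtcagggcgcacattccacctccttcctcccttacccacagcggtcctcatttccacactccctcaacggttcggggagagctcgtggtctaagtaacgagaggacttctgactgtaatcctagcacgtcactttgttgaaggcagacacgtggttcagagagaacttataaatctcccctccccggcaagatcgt
TGFB3: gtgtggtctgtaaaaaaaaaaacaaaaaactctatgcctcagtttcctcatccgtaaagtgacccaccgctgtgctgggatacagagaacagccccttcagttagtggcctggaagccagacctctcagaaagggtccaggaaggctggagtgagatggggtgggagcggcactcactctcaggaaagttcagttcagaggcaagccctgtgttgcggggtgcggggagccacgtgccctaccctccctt

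Both strands of the windows were searched for 4 motifs. The AP-1 motif TGANTCA stood in 1 of the 8 windows, that of FST, 160 bases before the start, and in 6.67% of the 24885 windows of all genes. The E-box CAGGTG, bound by SNAIL and ZEB factors, stood in 2 of the 8, FST at 164 bases and TGFBR1 at 116 bases before the start, and in 17.4% of all windows. In FST the 2 matches share bases, so they are not separate finds. The SMAD palindrome GTCTAGAC was in none of the 8 windows and in 0.185% of all windows, and the p65 consensus that the study used was in none of the 8 and in 0.265% of all. The windows of the raised genes had little in common in base composition. G and C made up 76.8% of the TGFB1 window, 74.4% of that of FSTL1 and 60% of that of FST. The share was 50.4% for TGFB2, 44% for TGFBR1 and 40.8% for TGFBR2. It was 54.8% for the lowered TGFB3 and 89.6% for the lowered INHBB, with a median of 57.6% over all windows. A match is a description of the letters and not a measured binding site.

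Of the 10 genes, 8 were higher and 2 were lower after EI24 knockdown than in the shGFP line (adjusted p under 0.05 from limma). INHBA, FSTL1, TGFBR2, FST and TGFB2 rose by over 12-fold, TGFBR3, TGFB1 and TGFBR1 by less, and TGFB3 and INHBB fell. Among all genes 26.8% were called higher and 29.0% lower in this comparison. By the stricter call that also asks for a 2-fold difference, 8 of the 10 were higher and 1 was lower, against 8.69% and 9.08% of all genes. The median log2 difference of the 10 genes was 3.01, beside 0.08 over all genes, and the median size regardless of sign was 3.01 beside 0.32. The 10 genes were chosen with earlier results of these data known, so these shares and medians describe them and are not a test. For each of the 8 raised genes every ZR-shEI24 array lay above every control array, as in 23.8% of all genes, and for both lowered genes every one lay below, as in 26.9% of all genes. The gap between the nearest arrays of the 2 sides ran from 0.33 for INHBB to 4.38 for INHBA, in log2 units. The plot of values by array shows these levels for all 10 genes.

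**Figure D1:**
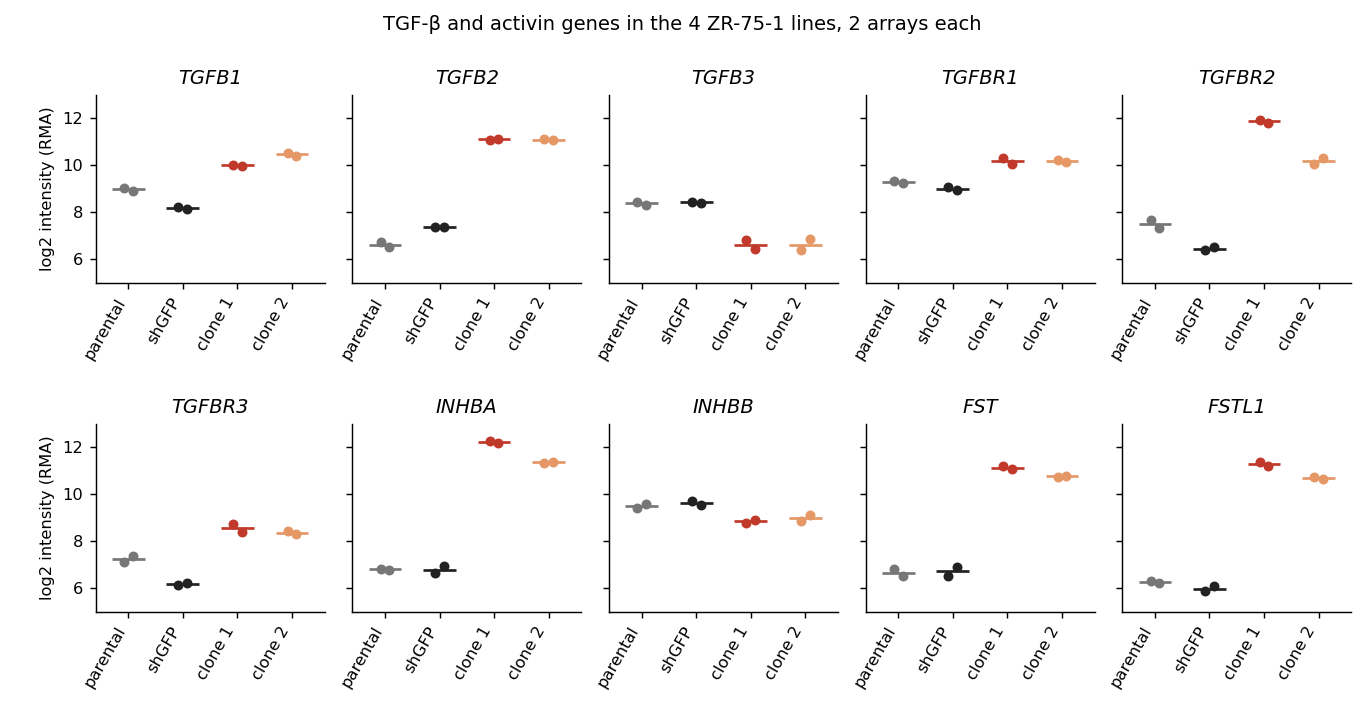
Log2 intensity (vertical axis) of each of the 10 genes in parental, shGFP, ZR-shEI24 clone 1 and ZR-shEI24 clone 2 cells (horizontal axis). Each point is 1 array, 2 for each line, and each bar is the mean of the line. In 8 genes both clones lie above both control lines, in TGFB3 and INHBB both lie below, and the clones stand visibly apart in TGFBR2 and INHBA.

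The 3 TGF-β ligands did not move together. TGFB2, the isoform known for its need of the co-receptor TGFBR3 to bind efficiently, had log2 intensities of 11.09 and 11.11 in clone 1, 11.09 and 11.07 in clone 2, 7.35 and 7.38 in shGFP cells, and 6.72 and 6.50 in parental cells. The 4 ZR-shEI24 arrays were nearly equal and far above all controls. The log2 difference from shGFP was 3.73 (SE 0.08, adjusted p = 3.0e-09 from limma), a 13.2-fold rise that ranked 178 among the 18417 genes.

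TGFB1, the most widely expressed isoform, had log2 intensities of 10.00 and 9.98 in clone 1, 10.52 and 10.40 in clone 2, 8.23 and 8.14 in shGFP cells, and 9.02 and 8.92 in parental cells. Every line stood apart from the next, with clone 2 highest and shGFP lowest. Against shGFP the log2 difference was 2.04 (SE 0.08, adjusted p = 6.6e-08 from limma), or 4.11-fold. Against parental cells it was smaller, 1.25 (adjusted p = 1.4e-06 from limma).

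TGFB3 went the other way. Its log2 intensities were 6.80 and 6.43 in clone 1, 6.39 and 6.84 in clone 2, 8.45 and 8.41 in shGFP cells, and 8.44 and 8.32 in parental cells. The ZR-shEI24 arrays scattered more than the control arrays yet all lay below them. Compared with shGFP the log2 difference was -1.82 (SE 0.14, adjusted p = 5.5e-06 from limma). The mean of the clones stood at percentile 24.9 of all genes in those cells, below percentile 25, where background makes up much of the signal, so the fall is given as at least 3.52-fold.

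All 3 receptors rose. TGFBR2, the type II receptor that binds the ligand and activates TGFBR1, had log2 intensities of 11.93 and 11.80 in clone 1, 10.07 and 10.32 in clone 2, 6.38 and 6.49 in shGFP cells, and 7.65 and 7.32 in parental cells. The 4 lines were separate from each other, and parental cells lay above shGFP cells. The log2 difference of the mean of the clones from shGFP was 4.59 (SE 0.12, adjusted p = 5.5e-09 from limma), or 24.1-fold, and from parental cells it was 3.55 (adjusted p = 2.6e-08 from limma). The shGFP level stood at percentile 25.3, just above the limit of 25.

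TGFBR1, the type I kinase that phosphorylates SMAD2 and SMAD3, changed the least of the raised genes. It had log2 intensities of 10.29 and 10.06 in clone 1, 10.22 and 10.14 in clone 2, 9.05 and 8.94 in shGFP cells, and 9.32 and 9.25 in parental cells. The arrays of the clones interleaved and lay above all controls. Relative to shGFP the log2 difference was 1.18 (SE 0.09, adjusted p = 4.5e-06 from limma), or 2.27-fold.

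TGFBR3, or betaglycan, a co-receptor without kinase activity that presents TGFB2 and also binds inhibin, had log2 intensities of 8.74 and 8.38 in clone 1, 8.43 and 8.28 in clone 2, 6.13 and 6.22 in shGFP cells, and 7.10 and 7.35 in parental cells. The clones overlapped and the control lines did not. The log2 difference from shGFP was 2.28 (SE 0.12, adjusted p = 4.3e-07 from limma). The shGFP level lay at percentile 21.1, so the rise is at least 4.87-fold. Against parental cells the log2 difference was 1.23 (adjusted p = 2.2e-05 from limma).

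The activin subunits split in the same way as the ligands. INHBA, whose homodimer is activin A, rose the most of the 10 genes. It had log2 intensities of 12.27 and 12.18 in clone 1, 11.32 and 11.37 in clone 2, 6.62 and 6.95 in shGFP cells, and 6.82 and 6.76 in parental cells. The control arrays of the 2 lines interleaved, and clone 1 lay above clone 2. Against shGFP the log2 difference was 5.00 (SE 0.10, adjusted p = 1.9e-09 from limma), a 32.1-fold rise that ranked 50 among the 18417 genes.

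INHBB, whose homodimer is activin B, had log2 intensities of 8.77 and 8.90 in clone 1, 8.83 and 9.09 in clone 2, 9.71 and 9.53 in shGFP cells, and 9.42 and 9.57 in parental cells. The groups did not overlap, although the gap was narrow. Compared with shGFP the log2 difference was -0.72 (SE 0.10, adjusted p = 0.00028 from limma), a 1.65-fold fall, and INHBB was the gene of the 10 that did not reach 2-fold.

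FST and the follistatin-like FSTL1 rose with INHBA. FST, the secreted activin antagonist, had log2 intensities of 11.18 and 11.08 in clone 1, 10.74 and 10.77 in clone 2, 6.53 and 6.90 in shGFP cells, and 6.81 and 6.51 in parental cells. The control arrays of the 2 lines interleaved and the clones lay far above them. Relative to shGFP the log2 difference was 4.23 (SE 0.12, adjusted p = 1.3e-08 from limma), or 18.7-fold.

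FSTL1, a secreted glycoprotein that shares a follistatin-like domain, had log2 intensities of 11.36 and 11.19 in clone 1, 10.71 and 10.62 in clone 2, 5.88 and 6.08 in shGFP cells, and 6.30 and 6.21 in parental cells. All clone arrays lay far above all control arrays. The log2 difference from shGFP was 4.99 (SE 0.09, adjusted p = 1.3e-09 from limma). The shGFP level lay at percentile 18.4, so the rise is at least 31.8-fold.

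The same calls were made against parental cells, which share the ZR-shEI24 arrays with the comparison above. There too 8 of the 10 genes were higher and 2 lower, beside 25.1% and 30.8% of all genes. The log2 difference from parental cells was 5.00 for INHBA, 4.72 for FSTL1, 4.48 for TGFB2, 4.28 for FST and 0.89 for TGFBR1, and it was -1.77 for TGFB3 and -0.60 for INHBB. TGFB1 and TGFBR3 were the 2 genes whose log2 difference was smaller by more than 1.5 times with this control. As folds, TGFBR2 went from 24.1 against shGFP to 11.7 against parental cells. TGFB1 went from 4.11 to 2.38 and TGFBR3 from at least 4.87 to 2.35. Each clone taken alone against shGFP also gave 8 higher and 2 lower, with 23.0% of all genes higher and 26.6% lower for clone 1 and 25.2% higher and 27.8% lower for clone 2.

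**Figure D2:**
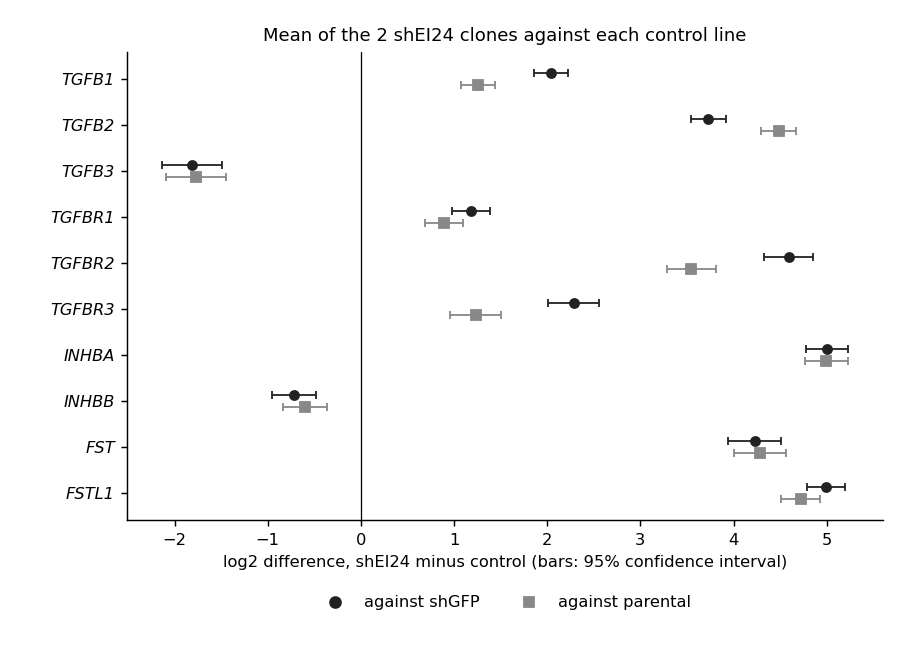
Log2 difference (horizontal axis) of the mean of the 2 ZR-shEI24 clones from shGFP cells (circles) and from parental cells (squares) for the 10 genes (vertical axis). Bars are 95% confidence intervals from limma and filled symbols are calls at an adjusted p under 0.05. All 20 symbols are filled, with INHBA at 5.00 from both controls at one end and TGFB3 at -1.82 and -1.77 at the other.

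The clones differed from each other in 4 of the 10 genes, 3 higher and 1 lower in clone 1, where 9.29% of all genes were higher and 5.88% lower. Since shGFP is common to both, this is also the test of whether the change from shGFP differed between the clones. TGFBR2 was higher in clone 1 by a log2 difference of 1.68 (SE 0.13, adjusted p = 0.00015 from limma), INHBA by 0.88 (SE 0.12, adjusted p = 0.0016) and FSTL1 by 0.61 (SE 0.11, adjusted p = 0.0057). TGFB1 was lower in clone 1 by a log2 difference of -0.46 (SE 0.09, adjusted p = 0.010 from limma). Clone 1 also held less EI24 mRNA than clone 2, by a log2 difference of -0.68 (adjusted p = 0.0023 from limma), and the part of this in the differences was not tested. TGFB1 lost its call without the first array of clone 2 (log2 difference -0.40, adjusted p = 0.065 from limma). With the t-test of the study's methods, which estimates the spread of each gene from 4 arrays alone, none of the 4 passed after adjustment over all genes (5 of the 10 genes were under 0.05 unadjusted).

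The other 6 genes did not pass between the clones. The 95% interval of the log2 difference ran from -0.20 to 0.23 for TGFB2, from -0.23 to 0.24 for TGFBR1 and from -0.38 to 0.37 for TGFB3. It ran from -0.11 to 0.52 for TGFBR3 and from -0.40 to 0.15 for INHBB. For FST the difference was 0.37 with an interval of 0.05 to 0.70 (adjusted p = 0.13 from limma), which misses the threshold after adjustment over all genes.

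The control lines differed in 4 of the 10 genes as well, 1 higher and 3 lower in shGFP than in parental cells, beside 3.21% and 7.44% of all genes. TGFBR3 was lower in shGFP cells by a log2 difference of -1.05 (SE 0.14, adjusted p = 0.0028 from limma), TGFBR2 by -1.04 (SE 0.13, adjusted p = 0.0025) and TGFB1 by -0.79 (SE 0.09, adjusted p = 0.0017). TGFB2 was higher in shGFP cells by 0.76 (SE 0.10, adjusted p = 0.0025 from limma). For TGFB1, TGFBR2 and TGFBR3 the shift from parental to shGFP cells ran opposite to the change in the clones, so their rise was larger against shGFP than against parental cells. TGFBR1 was lower in shGFP cells by -0.29, which did not pass (adjusted p = 0.12 from limma) but passed with the replicate block (adjusted p = 0.032). The t-test of the methods called none of the 10 after adjustment (5 were under 0.05 unadjusted). The other 5 genes, TGFB3, INHBA, INHBB, FST and FSTL1, did not pass, with log2 differences between -0.27 and 0.13.

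**Figure D3:**
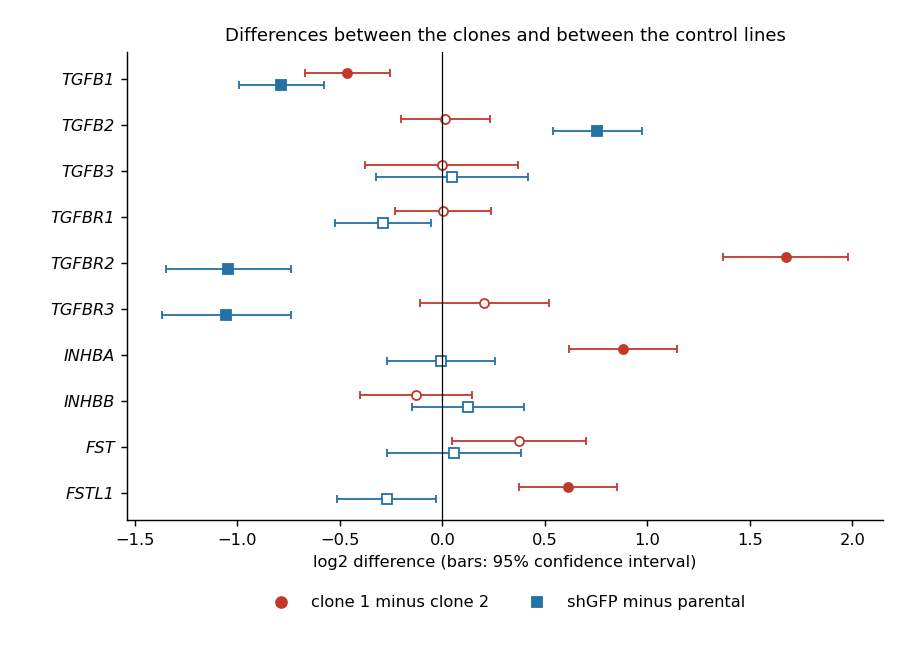
Log2 difference (horizontal axis) of clone 1 minus clone 2 (circles) and of shGFP minus parental cells (squares) for the 10 genes (vertical axis). Bars are 95% confidence intervals from limma, filled symbols are calls at an adjusted p under 0.05 and open ones are not. TGFBR2 has the widest spread, at 1.68 between the clones and -1.04 between the control lines, and TGFB3, TGFBR1, INHBB and FST have open symbols in both.

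Ordered by level, both clones lay on the same side of both control lines for every one of the 10 genes. All 3 neighboring pairs in the order differed for TGFB1, which ran clone 2, clone 1, parental, shGFP from the top, and for TGFBR2, which ran clone 1, clone 2, parental, shGFP. In TGFB3, TGFBR1, INHBB and FST neither the pair of clones nor the pair of control lines passed the adjusted threshold, although the 95% interval left out 0 for the clones in FST and for the control lines in TGFBR1 (-0.52 to -0.05). In TGFB2 and TGFBR3 the control lines passed and the clones did not. In INHBA and FSTL1 the clones passed and the control lines did not, with an interval for the control lines of FSTL1 from -0.51 to -0.03.

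By the similarity of levels over the 8 arrays, after each gene's own mean was subtracted, the genes closest to INHBA were GLIPR1 (root mean square difference 0.13 log2 units), EMP1 (0.20) and ETV1 (0.23). Their log2 differences from shGFP were 5.13, 4.64 and 4.74. The genes closest to TGFB3 were FIS1 (root mean square difference 0.12), the pseudogene ALOX12P2 (0.13) and NUP62CL (0.15), with log2 differences of -1.66, -1.76 and -1.60. The likeness is a description without a test, over 4 lines of 2 arrays.

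The other genes of the pathway were taken from 5 lists of 66 genes, of which 63 were measured. In ZR-shEI24 cells 28 of them were higher than in shGFP cells, 18 were lower and 17 did not pass. Beside the 26.8% higher and 29.0% lower among all genes, the count of lower genes was near the background, and the counts of each list below are to be read against the same shares. The plot of the pathway lists shows each of the 63.

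Of 12 activin receptors, co-receptors and SMADs, 3 rose, 5 fell and 4 did not pass, with a median log2 difference of 0.14 beside 0.08 over all genes. The count of higher genes was near the 26.8% of all genes. SMAD3, the transcription factor phosphorylated by TGFBR1 and the activin type I receptors, rose. It went from 9.54 and 9.51 in shGFP cells to between 10.75 and 10.96 in the clones, a log2 difference of 1.34 (SE 0.07, adjusted p = 4.4e-07 from limma). SMAD2, introduced above beside SMAD3, was lower than in shGFP cells by -0.76 (SE 0.10, adjusted p = 0.00019 from limma). Against parental cells SMAD2 differed by -0.51 (adjusted p = 0.0024 from limma). The activin receptors ACVR1B and ACVR2A were lower, whereas the 3 receptors of TGF-β described above were higher. ACVR1B, the type I receptor of activin, differed from shGFP by -0.93 (SE 0.09, adjusted p = 2.7e-05 from limma) and ACVR2A, a type II receptor of activin, by -0.79 (SE 0.11, adjusted p = 0.00026). TGFBRAP1, a receptor-associated protein, differed by -0.84 (SE 0.09, adjusted p = 3.5e-05 from limma). ACVR1C, a type I receptor for nodal, was higher by 0.30 (adjusted p = 0.0057 from limma), and it lost its call without the first shGFP array (adjusted p = 0.071).

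Of 8 other ligands of the activin and nodal branch 0 rose, 2 fell and 6 did not pass by limma, with a median of 0.02. At an unadjusted p under 0.05 the count of higher ligands was also 0, as it was with the t-test of the methods. INHBE, an inhibin β subunit known mainly from liver, differed from shGFP by -0.92 (adjusted p = 3.5e-05 from limma) but from parental cells by 0.34 (adjusted p = 0.014), since shGFP cells lay above parental cells by 1.27 (adjusted p = 0.00046). The sign of its difference thus depends on the control. INHBE stood at percentile 22.4 in parental cells and 24.6 in the mean of the clones. Both are below 25, so the difference between them is one of levels near background. GDF11, a ligand of the activin type receptors, differed by -0.27 (adjusted p = 0.045 from limma), and leaving out single arrays took the adjusted p up to 0.24. With a mean of the list between 6.60 and 6.86 in all 8 arrays, many of these ligands were near the dim end, and 3 of the 8 lay below percentile 25 in shGFP cells.

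Of 13 genes that store or activate latent TGF-β, 8 rose, 2 fell and 3 did not pass, with a median of 0.60. FBN1, the microfibril protein fibrillin-1 to which latent complexes attach, rose from 5.99 and 5.67 in shGFP cells to between 8.29 and 8.65 in the clones, at least 6.31-fold (log2 difference 2.66, SE 0.13, adjusted p = 2.4e-07 from limma). THBS1, thrombospondin-1, an activator of latent TGF-β, rose from 9.81 and 9.72 to between 11.85 and 12.39 (log2 difference 2.37, SE 0.07, adjusted p = 1.6e-08 from limma). ITGB8, an integrin subunit that activates latent TGF-β, was at least 2.36-fold higher (log2 difference 1.24, SE 0.09, adjusted p = 3.2e-06 from limma), with 7.63 and 7.66 in clone 1 but 6.22 and 6.37 in clone 2. LTBP1, which tethers latent TGF-β to the matrix, was lower by a log2 difference of -1.69 (SE 0.09, adjusted p = 4.4e-07 from limma), with 9.19 and 9.05 in clone 1, 7.56 and 7.35 in clone 2 and 10.02 and 9.93 in shGFP cells. LTBP3 was lower by -0.84 (SE 0.08, adjusted p = 2.6e-05 from limma). With each line as 1 replicate the calls of ITGB8 (adjusted p = 0.11) and LTBP1 (adjusted p = 0.10) were lost.

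Of 13 inhibitors 4 rose, 7 fell and 2 did not pass, with a median of -0.40. The count of higher inhibitors was near the share of 26.8% of all genes, and 29.0% of all genes were lower. Among the higher inhibitors, PMEPA1 was counted by the mean of the clones (log2 difference 0.33). It was higher than in shGFP cells in clone 1 and lower in clone 2. FSTL3, an antagonist of activin related to follistatin, rose from 8.64 and 8.83 in shGFP cells to between 10.83 and 11.41 in the clones (log2 difference 2.39, SE 0.08, adjusted p = 2.9e-08 from limma). SMURF2, a ubiquitin ligase that marks the receptors for degradation, rose by 2.33 (SE 0.07, adjusted p = 1.9e-08 from limma). BAMBI, a decoy receptor without kinase activity, was lower by -1.77 (SE 0.11, adjusted p = 1.1e-06 from limma) and SMAD6, an inhibitory SMAD, by -1.22 (SE 0.10, adjusted p = 5.8e-06). SMAD7 was lower by -1.17 (SE 0.08, adjusted p = 2.9e-06 from limma) and SKIL by -0.76 (SE 0.11, adjusted p = 0.00030).

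Of the 17 target genes of TGF-β that were measured, 13 rose, 2 fell and 2 did not pass, with a median of 1.14. Genes placed in the inhibitor list, among them SMAD7 and SKIL, which were lower, are not counted here. SNAI2, the transcription factor Slug, rose at least 41.3-fold, from 5.97 and 6.22 in shGFP cells to between 10.99 and 11.94 in the clones (log2 difference 5.37, SE 0.16, adjusted p = 1.3e-08 from limma). FN1, fibronectin, rose from 7.22 and 7.32 to between 12.28 and 12.39 (log2 difference 5.05, SE 0.08, adjusted p = 9.3e-10 from limma). CCN2, or connective tissue growth factor, rose by 4.51 (SE 0.13, adjusted p = 1.2e-08 from limma), and TGFBI, a matrix protein named for its induction by TGF-β, by 3.13 (SE 0.25, adjusted p = 6.2e-06), or at least 8.76-fold. Against the list, PDGFB differed by -0.65 (adjusted p = 0.00072 from limma) and KLF10 by -0.53 (adjusted p = 0.00090). KLF10 did not pass against parental cells (-0.10, adjusted p = 0.36 from limma). These genes also answer to other pathways, and SNAI2 and FN1 are mesenchymal genes that the study itself followed in these cells, so the list is not independent evidence of its direction.

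**Figure D4:**
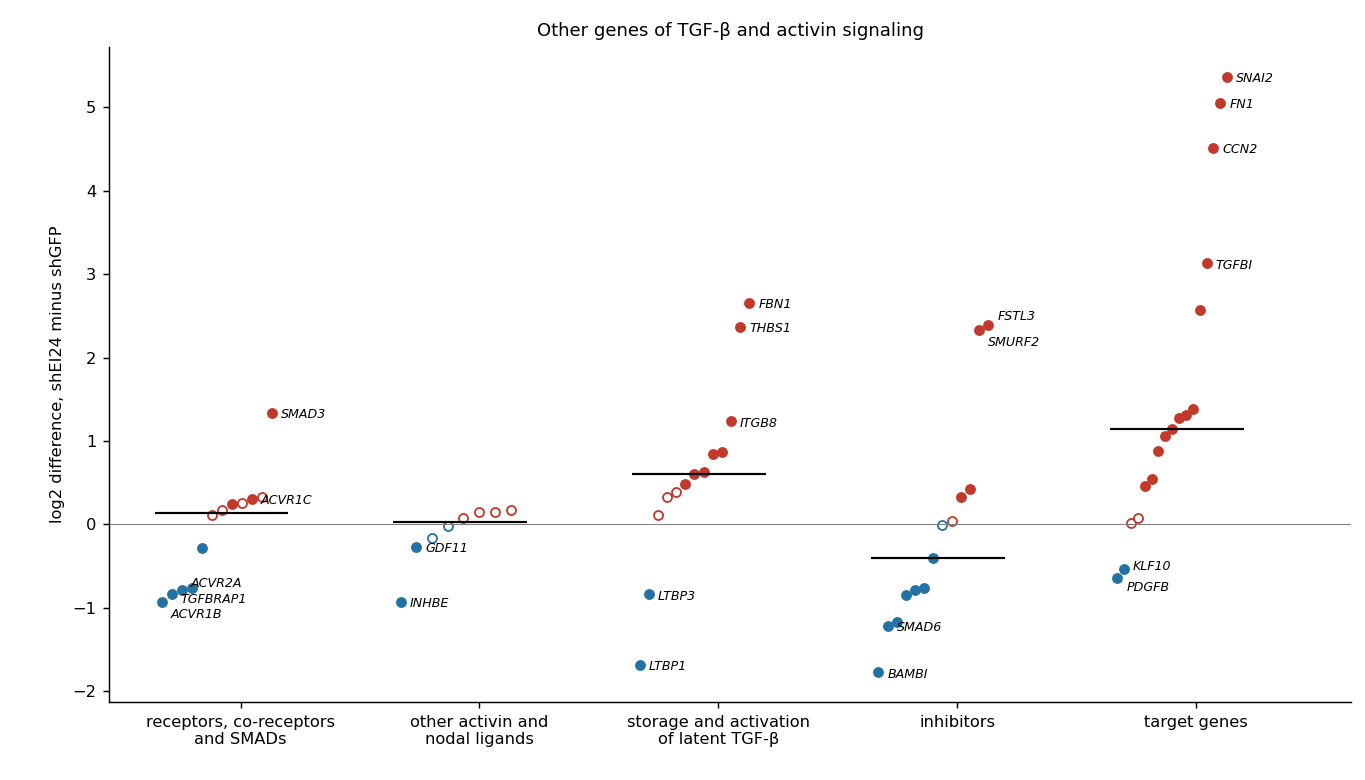
Log2 difference of ZR-shEI24 from shGFP cells (vertical axis) for the 63 measured genes of 5 pathway lists (horizontal axis). Each point is 1 gene, red where higher and blue where lower, filled where the adjusted p is under 0.05, and the black line is the median of the list. The target genes reach 5.37 with a median of 1.14, and the inhibitors have a median of -0.40 with FSTL3 and SMURF2 set apart at the top.

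Markers of the cell type moved in the same arrays. All 9 luminal epithelial markers were lower in the clones than in shGFP cells, with a list mean of 8.98 to 9.26 log2 units in the ZR-shEI24 arrays and 11.7 to 11.9 in the control arrays. GATA3 lay between 7.25 and 7.57 in the clones and between 12.21 and 12.45 in the controls, and ESR1, the estrogen receptor, between 5.81 and 6.11 and between 10.59 and 10.78. The control lines therefore carried the luminal markers of ZR-75-1, and in the clones ESR1 lay at percentile 15.5 of all genes. GATA3 and ESR1 fell the most of the 9. KRT8 and KRT18 were lower too but stayed at percentiles 98.4 and 97.5 in the clones. KRT19 differed from shGFP by -2.67 in clone 1 and by -0.43 in clone 2. Of 10 fibroblast markers 1 passed, PDGFRA at a log2 difference of 0.28, and the list mean was 5.95 to 6.14 in the clones and 5.82 to 5.94 in the controls. Of 3 endothelial markers 1 was higher (PECAM1, 0.52) and of 3 leukocyte markers 2 were (PTPRC, 0.21, and CD14, 0.89). On bulk RNA, fewer cells of a type and less RNA per cell cannot be told apart, and the part of the marker shift in the levels of the 10 genes was not tested.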

How the data were processed

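For every transcript cluster and array the authors deposited a log2 intensity, made with GCOS and RMA according to the submitters' processing notes, without versions. Background subtraction, quantile normalization and probe summary are the steps of RMA. Array medians were thus 7.28 to 7.39, and a shift in RNA content of the whole cell could not show. The methods name an exon array, while the cluster identifiers matched the annotation of the related Human Gene 1.0 ST array. Of 33297 clusters, 19460 had 1 gene symbol and 1754 several; 12083 were unnamed here. Keeping the brightest cluster per symbol left 18417 genes and set aside 1043 clusters.

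Differences were fitted with limma 3.58.1 in R 4.3.3 (lmFit, eBayes, a mean per line, 4 residual degrees of freedom), with Benjamini-Hochberg adjustment over all genes and a threshold of 0.05. The number of arrays limits the precision. Genes below percentile 25 in their dimmer group have their fold given as a lower bound. The clone and replicate numbers were read from the sample titles. Deviations of same-numbered arrays from their line means correlated in all 6 pairs of lines (0.25 to 0.59), so the numbers were taken to pair the arrays, and a fit with the replicate block was run beside the main one. The members and gene lists were chosen with earlier results of these data known. Named were all members, up to 4 called genes per list with the largest difference, up to 2 against the list's direction, and the 3 genes most like the member that rose or fell the most. GLIPR1 and the other similar genes carry no test. Cell type markers, PMEPA1, SKI, SMAD7, SKIL and SMAD2 are named as examples outside the rule. Of the list genes 3 are not analysed here. The fit was tested on simulated data. Alternatives were other controls (parental, or pooled), fewer groups in the fit, each line as 1 replicate, the replicate block, limma-trend, a second quantile normalization, median centring, a dimness filter, all transcript clusters, a 2-fold threshold, the methods' unpaired t-test and leaving out each array.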

Additional observations from a re-analysis of the deposited data

Results flagged for a closer look

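Genes named by the rule that differed between the ZR-shEI24 clones by limma's test (adjusted p under 0.05) are listed here. Differences are clone 1 minus clone 2 on the log2 scale. Among the 10 TGF-β and activin genes these were TGFBR2 (1.68), INHBA (0.88), FSTL1 (0.61) and TGFB1 (-0.46). Among the named genes of storage and activation the differences were 1.67 for LTBP1, 1.35 for ITGB8 and 0.51 for THBS1. LTBP1 was lowered less in clone 1, and ITGB8 and THBS1 were raised more there. FSTL3, the activin antagonist, was lower in clone 1 by a difference of -0.54. Of the inhibitors named outside the rule, the differences were 1.74 for PMEPA1, 0.70 for SKIL and 0.49 for SMAD7. SKIL and SMAD7 were lower than in shGFP cells in both clones. PMEPA1 went in opposite directions, with a mean of 9.76 in clone 1, 8.02 in clone 2 and 8.56 in shGFP cells. Each clone differed from shGFP cells in PMEPA1 at an adjusted p under 0.05 from limma. Among the targets SNAI2 (0.91) and TGFBI (1.09) were higher in clone 1 and KLF10 (-0.62) was lower. The cause was not tested.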

How the results depend on the processing

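All 10 genes kept their direction and their call against shGFP under each of the 20 alternatives, with the exception of INHBB at a 2-fold threshold. The alternatives are not all separate checks. For this comparison, leaving out either parental array equals the fit of only the ZR-shEI24 and shGFP arrays, since 1 array shows no spread. The log2 difference of TGFB1 ranged from 1.25 to 2.14, that of TGFBR3 from 1.23 to 2.37, that of TGFBR2 from 3.55 to 4.65, that of INHBA from 4.84 to 5.17 and that of TGFB3 from -1.93 to -1.70. No gene of the 10 had a second transcript cluster. The alternative with all transcript clusters read each gene from its brightest cluster, so it could change the adjusted p but not the log2 difference. At 2-fold, 1 gene was lower against shGFP and 1 against parental cells, 1 differed between the clones and 2 between the control lines. Against parental cells 7 genes were higher at 2-fold, since TGFBR1 was at 0.89. With the methods' t-test 0 differed between the clones and 0 between the control lines, where limma called 4 and 4. That test called 9 of the 10 genes for clone 1 alone against shGFP and 9 for clone 2 alone, where limma called all 10. The replicate block, which pairs arrays by number, left the difference of TGFBR1 between shGFP and parental cells at -0.29 and called it, as did limma-trend, and it changed no other call among the 10 genes. INHBE reversed, to 0.34, when parental cells served as control, with both sides below percentile 25. Of the receptors and SMADs, 1 was higher at 2-fold and 1 with the t-test, 0 were lower at 2-fold, and leaving out single arrays gave 1 to 3 higher. Of the other ligands, 1 was higher with parental or pooled controls or a second quantile normalization, and 1 was lower with limma-trend, all clusters or the t-test, 0 at 2-fold or with each line as 1 replicate, and 1 to 2 without single arrays. Of the storage genes 3 were higher at 2-fold and 5 with the t-test, and 1 was lower at 2-fold, with the t-test and with each line as 1 replicate. Of the inhibitors 2 were higher at 2-fold and with each line as 1 replicate, and 3 were lower at 2-fold. Of the targets 1 was lower with parental cells, each line as 1 replicate or the t-test, and 0 at 2-fold. The median of all genes lay between 0.02 and 0.10 under every setting. The causes were not tested. Signal near background limits TGFB3, TGFBR3 and FSTL1, whose folds are lower bounds. The shGFP means of TGFBR2 (6.44), FST (6.71) and INHBA (6.78) were close to the mean of TGFB3 in the clones (6.61). They lay above percentile 25, but their folds are to be read with the same limit.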
